A study of Mus musculus with 32 samples.

Results

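The 60 genes described here were above control marrow in DTRADQ mice after 3 days of diphtheria toxin (DT) and under a set limit, scaled by library total, after 1 day. They were chosen from 41388 genes by their levels on those days. With counts scaled to the library total (CPM) and r = log2((DTRADQ mean + 0.1)/(Con mean + 0.1)), a member had a DTRADQ mean of at least 3 CPM at day 3, r of at least 1.2 at day 3, r under 0.4 at day 1, and every DTRADQ library above every Con library at day 3. These levels were met by 74 genes, and 14 of them were left out by symbol, among them collagen chain, globin and sarcomere genes. Of the 60 members, 57 are protein coding and 3 are antisense RNAs, and all 60 were among the 14527 genes that passed the filter on low counts. They also passed that filter when it was applied to the no DT and day 2 libraries alone.

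Whole femur marrow of C57BL/6 mice aged 2 months was sequenced, with 1 library per mouse and 4 mice per group. DTRADQ mice carry a Cre-inducible diphtheria toxin receptor (DTR flox) together with Cre driven by the adiponectin promoter (ADQ Cre+), and Con mice are littermates with DTR flox and no Cre. The groups are DTRADQ and Con without DT, and DTRADQ and Con after 1, 2 or 3 daily injections of 100 ng DT. The Cre driver marks cells with adiponectin promoter activity, in marrow mainly stromal cells of the adipocyte lineage, and mouse cells without the receptor are resistant to the toxin. In whole marrow, a change in the number of cells of a type and a change in RNA per cell cannot be told apart.

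By roles assigned after their values were seen, 9 members process or crosslink collagen and 9 are matrix proteins, matrix proteases or a collagen receptor. Collagen chains are hydroxylated and folded in the endoplasmic reticulum with the help of dedicated enzymes and chaperones, secreted, and then crosslinked outside the cell by lysyl oxidases. TGF-beta and PDGF ligands are known to drive mesenchymal cells to make matrix and to assemble smooth muscle actin into contractile fibres, the state called a myofibroblast. Angiopoietin 2 is a ligand of the endothelial receptor Tie2.

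Each library held between 8.97 and 22.93 M counts (median 14.17 M). Adipoq, the marker of the targeted lineage, was at 0.389, 0.612, 0.221 and 0.979 CPM in DTRADQ at day 2, against 55.4, 55.0, 58.2 and 58.5 CPM in Con. In DTRADQ at day 3 it was at 0.600, 0.332, 0.264 and 0.391 CPM, against 37.7, 36.4, 32.1 and 54.3 CPM in Con. Levels here and below are CPM scaled by TMM, as in the edgeR fit, unless said otherwise. Library-total scaling, used in the rule, moves the median log2 ratio of all genes to -0.35 at day 2, -0.25 at day 1, -0.18 at day 3 and 0.41 without DT, where TMM gives -0.04, -0.01, -0.02 and -0.01. With TMM the median log2 change of the members at day 1 was 0.12, and 33 of 60 were above 0, as were 48.7% of all genes. Con replicates 3 and 4 without DT stood apart, with Hba-a1 at 34670 and 60335 CPM where Con replicates 1 and 2 had 11356 and 16221 CPM. DTRADQ replicate 1 at day 2 stood apart for the members themselves. It was the lowest of its group for 47 of 60 members, with a median of -0.81 in log2 units against the group mean. The day 3 libraries carry a lane label of their own, which touches comparisons between days and not those between genotypes on a day. No label says what the replicate numbers stand for, so p-values measure the spread between these mice.

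**Figure D1:**
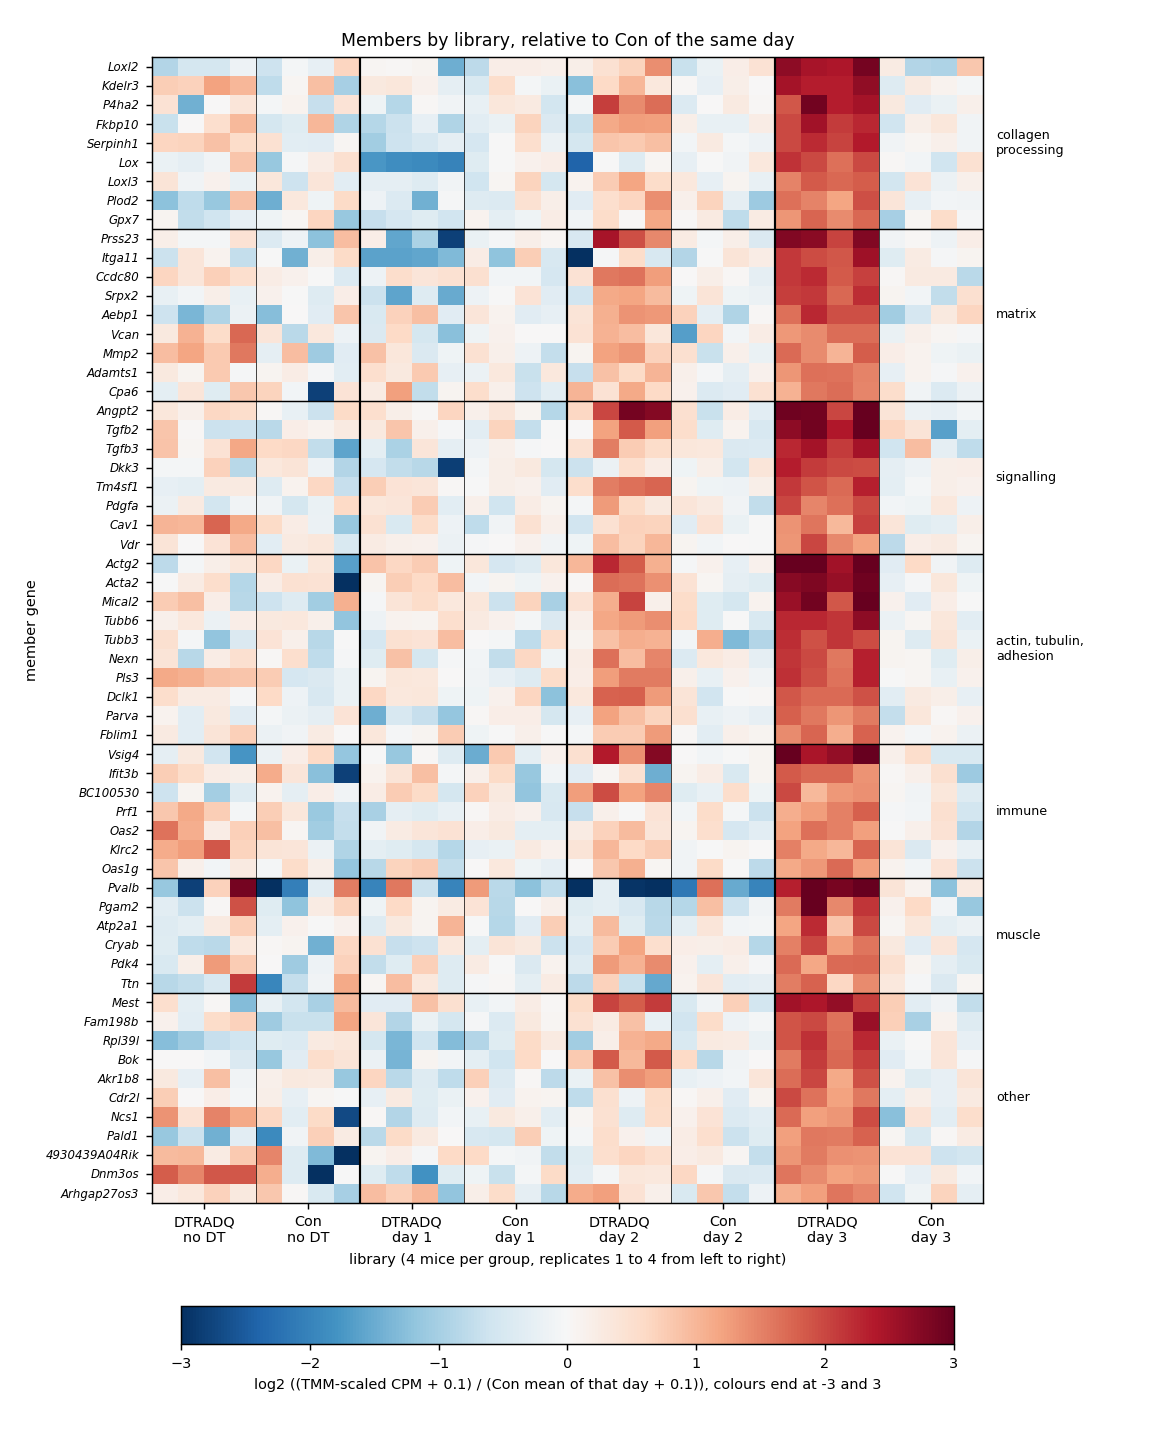
Each row is a member, grouped by role, and each column a library. Colour gives the log2 ratio of its TMM-scaled CPM to the Con mean of the same day, with 0.1 added to both. All 60 members are red in the 4 DTRADQ libraries of day 3, and the first DTRADQ library of day 2 is paler than the other 3 for most of them.

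At day 3, which the rule used and which is described without a test, r ran from 1.21 to 4.19 with a median of 1.69. All 60 had been chosen with the groups apart at day 3, where 14.9% of all genes had DTRADQ above Con and 20.4% below. The highest of the 8 group means was DTRADQ at day 3 for all 60 members, and for 40 of them every DTRADQ library of day 3 lay above every other library of the study. The rule favours such genes, the shares over all genes were not taken, and the lane label of day 3 limits comparisons between days. The 4 mice were close to each other for most members, with a median ratio of the highest to the lowest DTRADQ library of 1.51 and a ratio of 2 or more in 10 members. Replicate 4 was the highest for 28 members and replicate 3 the lowest for 31. In RPKM, the deposited scale that allows for gene length, the most abundant member was Acta2 with 66.5 ± 8.72 RPKM in DTRADQ and 10.8 ± 1.78 RPKM in Con at day 3. Serpinh1 followed with 41.5 ± 7.40 RPKM in DTRADQ and 10.2 ± 0.761 RPKM in Con (SD, n = 4 each). The lowest was Ttn at 0.0670 RPKM in DTRADQ.

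The edges of the rule were close. Arhgap27os3, Oas1g and Dnm3os were just inside the threshold at day 3 with r of 1.21, 1.22 and 1.23, and Pmepa1, Tpm1 and Fasl were just outside, each rounding to 1.2. Acta2, Arhgap27os3 and Actg2 were just inside the threshold at day 1 with r of 0.37, 0.35 and 0.35, and Stfa2, Gm10371 and Gm13842 were just outside with 0.40, 0.41 and 0.41. These r are by library total, where the median log2 ratio of all genes at day 1 was -0.25, against -0.01 with TMM. With TMM scaling the r of these genes at day 1 would be higher, so membership at this edge depends on the scaling. By library total, Aebp1, Pdk4 and P4ha2 were just inside the level threshold with 3.02, 3.29 and 3.32 CPM in DTRADQ at day 3. Fscn1, Hm629797 and 4931428L18Rik were just outside it with 2.90, 2.75 and 2.74 CPM.

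Day 2 was not used to choose the members and asks whether the difference at day 3 was already there a day earlier. Its p-values came from 1 fit of all 32 libraries. Their spread thus rests in part on the day 1 and day 3 libraries that the rule used. Of the 60 members, 16 were higher in DTRADQ than in Con and 0 were lower (edgeR quasi-likelihood test, Benjamini-Hochberg adjusted p under 0.05), and 44 did not pass. At an unadjusted p under 0.05, 35 were higher and 0 lower, and the share of all genes at that cut was not taken. DESeq2 called 20 higher and 0 lower, where it called 6.74% of all genes higher. By the edgeR adjusted p, 4.4% of all genes tested were higher and 4.12% lower. The median log2 change of the members was 0.73 against -0.04 for all genes, and 54 of 60 members were above 0. The 16 are Actg2, Acta2, Nexn, Pls3, Dclk1, Tubb6, Fblim1, Angpt2, Tm4sf1, Prss23, Ccdc80, P4ha2, Vsig4, BC100530, Mest and Bok. For these the description as genes raised only by day 3 goes against the data. All DTRADQ libraries lay above all Con libraries for 10 members, or 16.7%, where 10.7% of all genes did so, and 8 of the 10 passed the test. Without DTRADQ replicate 1, 28 members and 5.4% of all genes were higher. In a fit of the no DT and day 2 libraries alone, 11 members and 1.62% of all genes were higher. Acta2, Nexn, Fblim1, P4ha2 and Tubb6 did not pass in that fit.

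**Figure D2:**
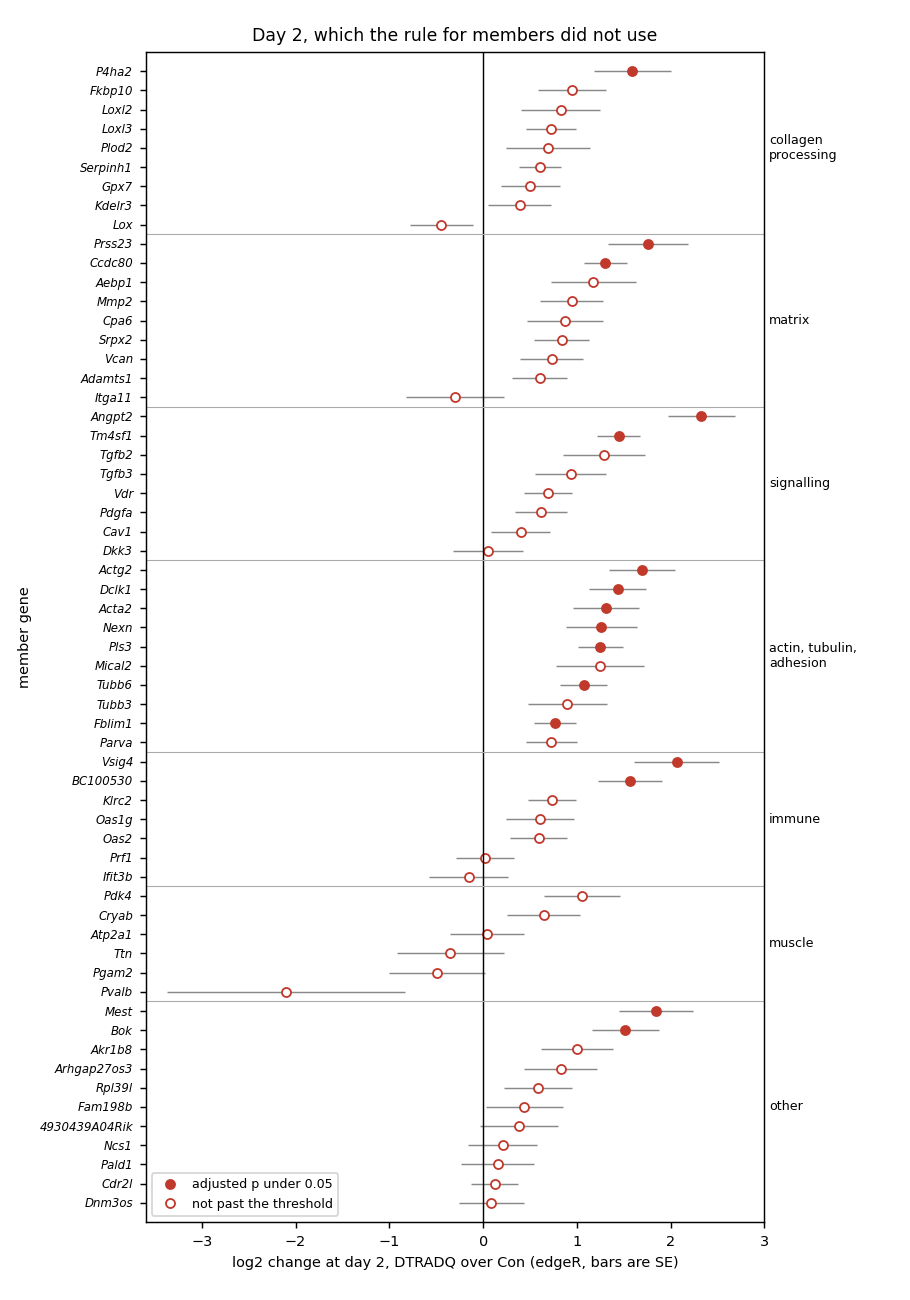
Points give the edgeR log2 change at day 2, DTRADQ over Con, with bars for the SE, for the 60 members in their role groups. Filled points are the 16 members that passed, 7 of them among the 10 actin, microtubule and adhesion genes and 0 among the 6 muscle genes.

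Genes that modify, fold and crosslink collagen made up 9 members, and 1 of the 9 passed at day 2. At day 1, which the rule used, 8 of the 9 had r under -0.4, as did 24 of all 60 members, or 40.0%, and 31.2% of all genes tested. Serpinh1, the collagen chaperone HSP47 (chromosome 7, 99345375 to 99353230, minus strand, GRCm38), had 90.6, 109, 93.5 and 120 CPM in DTRADQ at day 3, against 21.1, 23.9, 25.3 and 21.2 CPM in Con. At day 2 it had 17.6, 45.7, 43.9 and 47.9 CPM in DTRADQ, against 24.1, 30.5, 24.2 and 23.0 CPM in Con. DTRADQ replicates 2 to 4 were above all Con mice and replicate 1 below them. The log2 change was 0.61 ± 0.22 (SE), which did not pass (edgeR adjusted p = 0.0839). Without DTRADQ replicate 1 it was 0.87 and passed (edgeR adjusted p = 0.00343).

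P4ha2, a catalytic subunit of collagen prolyl 4-hydroxylase, was the member that passed. It had 0.545, 2.71, 1.69 and 2.06 CPM in DTRADQ at day 2, against 0.406, 0.582, 0.710 and 0.591 CPM in Con. The groups overlapped through DTRADQ replicate 1 alone, and the log2 change was 1.59 ± 0.41 (edgeR adjusted p = 0.0135). In the fit of the no DT and day 2 libraries alone P4ha2 did not pass. Kdelr3, which returns chaperones from the Golgi to the endoplasmic reticulum, had 8.23, 7.42, 7.47 and 9.28 CPM in DTRADQ at day 3 and 1.02, 1.68, 1.49 and 1.31 CPM in Con. Its day 2 change was small, 0.39 ± 0.34 in log2 units, and overlapping reads of Ddx17 on the other strand could enter its count. Loxl2, a lysyl oxidase family crosslinking enzyme, had 3.92, 3.38, 3.24 and 4.44 CPM in DTRADQ at day 3 and 0.640, 0.240, 0.226 and 0.982 CPM in Con. At day 2 its groups overlapped, with 0.701, 0.874, 1.03 and 1.76 CPM in DTRADQ and 0.348, 0.518, 0.710 and 0.853 CPM in Con.

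Lox, the first lysyl oxidase, had the lowest r of all members at day 1 and is given after its values were seen. It had 0.956, 0.876, 0.837 and 0.776 CPM in DTRADQ at day 1, against 2.64, 3.38, 3.76 and 3.93 CPM in Con. At day 2 it had 0.701, 4.11, 3.16 and 4.31 CPM in DTRADQ, against 3.48, 4.08, 3.81 and 5.18 CPM in Con. DTRADQ replicate 1 of day 2 lay below the 4 day 1 mice, and the other 3 lay within or just under the Con range. At day 3 all 4 DTRADQ mice were above Con, with 19.5, 17.2, 13.6 and 17.2 CPM in DTRADQ and 4.35, 4.04, 2.80 and 5.85 CPM in Con. The day 2 change was -0.44 ± 0.34 (edgeR adjusted p = 0.435).

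Beyond the members, a list of collagen processing and secretory genes had 18 other genes tested. Of these 1, Sec23a of the COPII coat, was higher and 1, Adamts2, lower at day 2, when 4.4% of all genes were higher and 4.12% lower. At day 3, 4 of the 18 were higher and 0 lower, when 8.8% of all genes were higher and 14.1% lower. Over the whole list, members included, 2 of 23 tested were higher and 1 lower at day 2, with a median log2 change of 0.08.

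Matrix proteins, their proteases and a collagen receptor made up 9 members, and 2 passed at day 2. Ccdc80, a secreted matrix protein, had 9.35, 21, 21.6 and 16.7 CPM in DTRADQ at day 2, against 7.01, 7.89, 7.10 and 5.77 CPM in Con. The groups did not overlap, and the log2 change was 1.30 ± 0.23 (edgeR adjusted p = 0.000400). At day 3 Ccdc80 had 41.8, 45.5, 34.8 and 39.9 CPM in DTRADQ and 9.73, 11.6, 11.6 and 5.40 CPM in Con. Prss23, a secreted serine protease, had 0.701, 6.12, 4.19 and 2.94 CPM in DTRADQ at day 2, against 1.22, 0.971, 1.16 and 0.722 CPM in Con. DTRADQ replicate 1 was the lowest of the 8 mice, and the log2 change was 1.76 ± 0.43 (edgeR adjusted p = 0.00954). Vcan, the proteoglycan versican, had 27.4, 29.6, 35.4 and 35.3 CPM in DTRADQ at day 3, against 9.60, 12.1, 11.5 and 10.7 CPM in Con. It did not pass at day 2, where the change was 0.73 ± 0.33 in log2 units.

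Itga11, the collagen-binding integrin alpha 11 chain, resembled Lox in its values and was also singled out after they were seen. It had 0.221, 0.219, 0.228 and 0.291 CPM in DTRADQ at day 1, against 1.04, 0.319, 1.53 and 0.599 CPM in Con. All DTRADQ mice were below all Con mice, though at levels near the floor and narrowly, with 0.291 CPM next to 0.319 CPM. At day 1 the groups were apart in this direction for 5 members and in the other for 0, which the rule limits, where 8.87% of all genes were below and 5.08% above. At day 3 it had 3.32, 2.99, 2.78 and 4.49 CPM in DTRADQ, against 0.512, 0.839, 0.677 and 0.736 CPM in Con. Its day 2 change was -0.30 ± 0.52 in log2 units. The other members of the group, Srpx2, Mmp2, Aebp1, Cpa6 and Adamts1, had day 2 changes between 0.60 and 1.17 and did not pass. Summed over 28 fibroblast and matrix markers, 5 of them members, DTRADQ mice of day 1 had 235 to 266 CPM and Con mice 389 to 566 CPM. At day 1, 12 of the 20 tested that are no members were lower and 0 higher, where 3.02% of all genes were lower and 0.888% higher. DTRADQ replicate 1 of day 2 had 309 CPM, the other 3 DTRADQ mice 474 to 489 CPM, and Con mice 418 to 472 CPM. Of the 25 tested, 0 were higher and 6 lower at day 2 by edgeR, where 4.4% of all genes were higher and 4.12% lower. Of the 25, 3 were higher at an unadjusted p under 0.05 and 1 by DESeq2, and the sums hold the members. Of the 20 tested that are no members, 9 were higher and 3 lower at day 3, where 8.8% of all genes were higher and 14.1% lower. The part of this list in the members' values was not tested.

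Ligands, receptors and other signalling genes made up 8 members, and 2 passed at day 2. Angpt2, the Tie2 ligand (chromosome 8, 18690263 to 18741562, minus strand), had 3.74, 9.96, 18.3 and 16.7 CPM in DTRADQ at day 2, against 3.42, 1.49, 2.84 and 1.90 CPM in Con. All DTRADQ mice were above all Con mice, though replicate 1 only just. The log2 change of 2.32 ± 0.36 was the highest among the 16 (edgeR adjusted p = 5.42e-05). At day 3 Angpt2 had 20.4, 20.1, 10.8 and 31.8 CPM in DTRADQ, against 3.50, 2.32, 2.21 and 2.49 CPM in Con. It overlaps Mcph1 on the other strand, at 10.7 CPM in DTRADQ and 22.1 CPM in Con by library total at day 3.

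Tm4sf1, a membrane protein with 4 transmembrane stretches, had 12.1, 24.2, 26.3 and 27.9 CPM in DTRADQ at day 2, against 8.75, 7.64, 7.49 and 9.32 CPM in Con. The groups did not overlap, and the log2 change was 1.44 ± 0.23 (edgeR adjusted p = 0.000106). Tgfb2 had 4.58, 5.26, 3.70 and 6.84 CPM in DTRADQ at day 3, against 1.02, 0.839, 0.135 and 0.491 CPM in Con. At day 2 it had 0.779, 1.92, 3.02 and 1.96 CPM in DTRADQ, against 1.16, 0.582, 0.840 and 0.525 CPM in Con, and the change of 1.29 ± 0.44 did not pass (edgeR adjusted p = 0.0595). It passed in 5 of 16 alternatives, among them DESeq2 and the fits without replicate 1 of DTRADQ or of Con. Tgfb3 changed by 0.93 ± 0.38 and Pdgfa, a PDGF receptor ligand, by 0.62 ± 0.28, neither past the threshold. Cav1, the caveolar coat protein, Vdr, the vitamin D receptor, and Dkk3, a secreted dickkopf family protein, had day 2 changes of 0.40, 0.69 and 0.05.

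A list of the TGF-beta and activin axis had 19 other genes tested. At day 2, 4 of them were higher, among them Acvrl1, Inhba and Inhbb, and 2 were lower, Tgfbr3 and Ltbp2, where 4.4% of all genes were higher and 4.12% lower. At day 3, 8 of the 19 were higher and the same 2 lower, where 8.8% of all genes were higher and 14.1% lower. Over the whole list the median log2 change at day 2 was 0.31.

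Actin, microtubule and adhesion genes made up 10 members, and 7 of them passed at day 2, with a median log2 change of 1.25 over the 10. In the fit of the no DT and day 2 libraries alone Acta2, Nexn, Tubb6 and Fblim1 did not pass. Acta2, smooth muscle alpha actin (chromosome 19, 34241090 to 34255336, minus strand), had 118, 125, 108 and 135 CPM in DTRADQ at day 3, against 14.8, 17.2, 22.3 and 16.2 CPM in Con. At day 2 it had 19.0, 59.5, 57.0 and 47.8 CPM in DTRADQ, against 25.0, 19.2, 15.2 and 14.4 CPM in Con. DTRADQ replicates 2 to 4 were above all Con mice, and replicate 1 was within their range. The log2 change was 1.31 ± 0.35 (edgeR adjusted p = 0.0175), and the call was kept in 11 of 16 alternatives. Actg2, smooth muscle gamma actin, had 3.04, 7.52, 5.44 and 3.23 CPM in DTRADQ at day 2, against 1.4, 1.62, 1.23 and 1.64 CPM in Con. All DTRADQ mice were above all Con mice, with a log2 change of 1.69 ± 0.35 (edgeR adjusted p = 0.00259). At day 3 Actg2 had 17.7, 16, 8.59 and 21.2 CPM in DTRADQ, against 1.11, 2.20, 1.31 and 1.06 CPM in Con.

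Pls3, an actin-bundling plastin, had 7.40, 15.5, 19.0 and 19.2 CPM in DTRADQ at day 2, against 7.13, 5.44, 7.04 and 5.97 CPM in Con, a change of 1.25 ± 0.24 (edgeR adjusted p = 0.00122). Tubb6, a beta tubulin, had 11.7, 23.9, 25.9 and 27.9 CPM in DTRADQ, against 16, 8.15, 10.5 and 7.61 CPM in Con, a change of 1.07 ± 0.25 (edgeR adjusted p = 0.00665). Dclk1, a microtubule-binding kinase, had 2.49, 6.99, 7.06 and 4.89 CPM in DTRADQ, against 2.61, 1.29, 1.94 and 2.03 CPM in Con, a change of 1.44 ± 0.30 (edgeR adjusted p = 0.00305). In each of the 3 genes DTRADQ replicates 2 to 4 were above all Con mice, and in Tubb6 and Dclk1 replicate 1 was inside the Con range. Nexn, an actin-binding protein, and Fblim1, a filamin-binding adhesion protein, passed with changes of 1.26 and 0.77. Mical2, an actin-oxidising enzyme, Tubb3 and the focal adhesion protein Parva did not pass, with changes of 1.25, 0.90 and 0.73. Actin and tubulin genes have close relatives, so their counts can depend on how shared reads were treated.

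A list of smooth muscle, pericyte and myofibroblast genes, which holds Acta2 and Actg2, had 12 other genes tested. At day 2, 7 of the 12 were higher, led by Tagln, Ccn1, Ccn2 and Cald1, and 1, Notch3, was lower, where 4.4% of all genes were higher and 4.12% lower. Tagln, the smooth muscle protein transgelin, had 9.89, 27.4, 32.7 and 20.7 CPM in DTRADQ, against 1.28, 1.10, 1.16 and 1.77 CPM in Con. It is no member, since it was already at 7.42, 6.49, 8.83 and 5.53 CPM in DTRADQ at day 1, against 0.674, 1.28, 1.25 and 1.26 CPM in Con. Summed over its 17 genes, the list stood at 829, 1185, 1223 and 1020 CPM in DTRADQ at day 2, against 712, 746, 620 and 607 CPM in Con. At day 1 this sum was already at 785 to 937 CPM in DTRADQ, against 605 to 659 CPM in Con. On that day 5 of the 12 were higher and 1 lower, where 0.888% of all genes were higher and 3.02% lower.

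**Figure D3:**
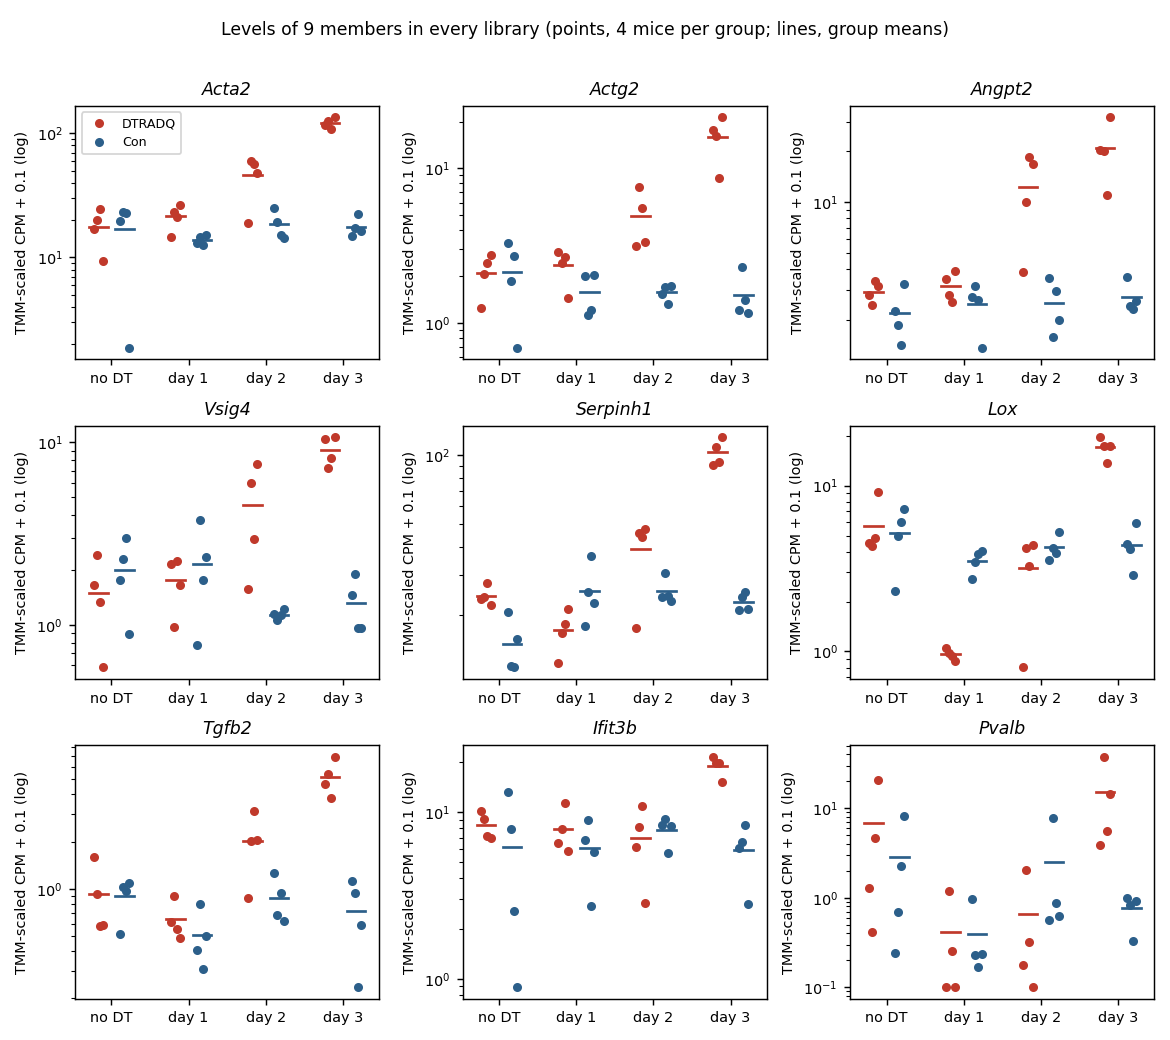
Points are the libraries of 9 members, with DTRADQ left of Con on each day and a line at each group mean. The vertical axis is TMM-scaled CPM with 0.1 added, on a log scale. Acta2 is at 108 to 135 CPM in DTRADQ at day 3, Lox is at 0.776 to 0.956 CPM in DTRADQ at day 1, and Pvalb spans 3.76 to 37.4 CPM in DTRADQ at day 3.

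The RefSeq promoter table (GRCm38.p6) held 56 windows for 40 of the 60 members, each from 250 bases before to 50 after a start. The windows of Acta2 (chr19:34255324-34255623), Tm4sf1 (chr3:57301939-57302238) and Prss23 (chr7:89518155-89518454), all on the minus strand, are shown as examples of members that passed at day 2 and whose window holds CAGCTG, chosen after the search. Capitals mark CAGCTG in all 3, GGAATG in Acta2 and TGANTCA in Prss23.
Acta2: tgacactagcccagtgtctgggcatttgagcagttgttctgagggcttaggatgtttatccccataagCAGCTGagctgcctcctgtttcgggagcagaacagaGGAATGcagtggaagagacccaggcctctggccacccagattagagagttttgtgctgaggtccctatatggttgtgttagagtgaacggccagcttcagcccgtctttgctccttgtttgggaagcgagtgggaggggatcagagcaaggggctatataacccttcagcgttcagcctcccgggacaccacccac
Tm4sf1: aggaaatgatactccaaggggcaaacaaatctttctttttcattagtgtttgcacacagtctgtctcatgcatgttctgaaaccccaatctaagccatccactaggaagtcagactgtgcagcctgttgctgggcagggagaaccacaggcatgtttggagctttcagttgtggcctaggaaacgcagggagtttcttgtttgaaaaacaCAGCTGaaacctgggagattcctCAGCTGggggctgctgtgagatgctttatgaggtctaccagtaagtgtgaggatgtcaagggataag
Prss23: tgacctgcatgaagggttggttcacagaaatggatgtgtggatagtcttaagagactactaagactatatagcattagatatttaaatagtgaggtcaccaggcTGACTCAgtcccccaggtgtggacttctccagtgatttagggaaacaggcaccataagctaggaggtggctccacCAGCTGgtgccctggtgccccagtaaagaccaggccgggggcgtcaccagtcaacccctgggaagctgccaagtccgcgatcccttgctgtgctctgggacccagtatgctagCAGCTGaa
CAGCTG, which reads the same on both strands, was in 15 of 56 member windows or 26.8%, against 16.3% of the 32851 windows of all genes. TGANTCA was in 14.3% of member windows and 7.81% of all windows, and GGAATG in 12.5% and 14.7%. GGGCGG was in 46.4% and 35.7%, and TATAAA in 8.93% and 13.6%. The CArG box, searched only as an exact CCWWWWWWGG (W is A or T), was in 1.79% and 1.63%, among members in Dnm3os alone. Forms with a base exchanged were not counted, such as ccctatatgg and ccttgtttgg in the Acta2 window. Both strands were searched, and windows of a gene can overlap, so these shares are descriptions only.

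Immune and interferon-response genes made up 7 members, and 2 passed at day 2. Vsig4, a complement receptor of resident macrophages, had 1.48, 5.86, 2.87 and 7.54 CPM in DTRADQ at day 2, against 1.04, 0.971, 1.03 and 1.12 CPM in Con. All DTRADQ mice were above all Con mice, with a log2 change of 2.06 ± 0.45 (edgeR adjusted p = 0.00398). At day 3 it had 10.4, 7.15, 8.06 and 10.6 CPM in DTRADQ, against 1.37, 1.8, 0.858 and 0.859 CPM in Con. Of 14 monocyte and macrophage markers, 0 were higher and 0 lower at day 2 by edgeR, where 4.4% of all genes were higher and 4.12% lower. Of these markers, 4 were higher at an unadjusted p under 0.05 and 2 by DESeq2. Their summed level was 2317 to 2572 CPM in DTRADQ and 1876 to 2062 CPM in Con. BC100530, a stefin family gene with close copies, had 3.04, 5.07, 2.94 and 3.52 CPM in DTRADQ at day 2, against 0.927, 1.04, 1.81 and 1.12 CPM in Con. The groups did not overlap, and the change was 1.57 ± 0.34 (edgeR adjusted p = 0.00387).

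The interferon-induced genes did not pass at day 2. Ifit3b had 6.08, 8.04, 10.7 and 2.74 CPM in DTRADQ, against 8.23, 8.99, 5.62 and 8.14 CPM in Con, and the groups overlapped. At day 3 it had 21.4, 19.5, 19.5 and 15.0 CPM in DTRADQ, against 5.98, 6.51, 8.22 and 2.70 CPM in Con. Oas2, an oligoadenylate synthetase, had 17.8, 24.1, 28.6 and 19.3 CPM in DTRADQ at day 2, against 15.8, 21.3, 10.5 and 11.9 CPM in Con, and changed by 0.60 ± 0.30. Klrc2, a natural killer cell receptor, and Prf1, perforin, changed by 0.73 and 0.02, and Klrc2 passed without DTRADQ replicate 1, with a change of 0.85. Of 8 T and NK cell markers, 0 were higher at day 2 by edgeR, DESeq2 or an unadjusted p under 0.05. By edgeR 2 were lower at day 2, where 4.4% of all genes were higher and 4.12% lower. At day 3, 2 were higher, Klrb1c and Gzma, and 0 lower, where 8.8% of all genes were higher and 14.1% lower. Counts of Ifit3b, Oas1g and Klrc2 can share reads with close relatives.

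Skeletal muscle and muscle metabolism genes made up 6 members, and 0 passed at day 2 in either direction by edgeR or DESeq2, with 1 higher at an unadjusted p under 0.05 and a median log2 change of -0.15. Pvalb, the calcium-binding parvalbumin of fast muscle, had 3.76, 37.4, 5.42 and 14.5 CPM in DTRADQ at day 3, against 0.896, 0.719, 0.226 and 0.818 CPM in Con. A list of 20 skeletal muscle markers holds 3 members, Pvalb, Atp2a1 and Ttn. Over the other 17 the summed level at day 3 was 143, 745, 149 and 313 CPM in DTRADQ, in the same order of mice as Pvalb, against 86.1, 64.4, 58.6 and 57.4 CPM in Con. At day 2 this sum was 42.4, 77.3, 40.2 and 47.7 CPM in DTRADQ, against 68.2, 192, 61.9 and 60.8 CPM in Con, and 3 of the 4 DTRADQ mice were below all Con mice. Of the 18 markers tested, 0 were higher at day 2 by edgeR, DESeq2 or an unadjusted p under 0.05. By edgeR 1, Eno3, was lower at day 2, where 4.4% of all genes were higher and 4.12% lower. Of the 15 tested that are no members, 11 were higher and 0 lower at day 3, where 8.8% of all genes were higher and 14.1% lower. Pgam2, the muscle phosphoglycerate mutase, had 5.78, 17.2, 5.35 and 8.74 CPM in DTRADQ at day 3, against 2.09, 2.92, 1.81 and 0.818 CPM in Con, highest in the same mouse. Pdk4 and Cryab, which other tissues also express, had day 2 changes of 1.05 and 0.65, neither past the threshold. The part of muscle RNA in the day 3 levels of the other members was not tested.

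**Figure D4:**
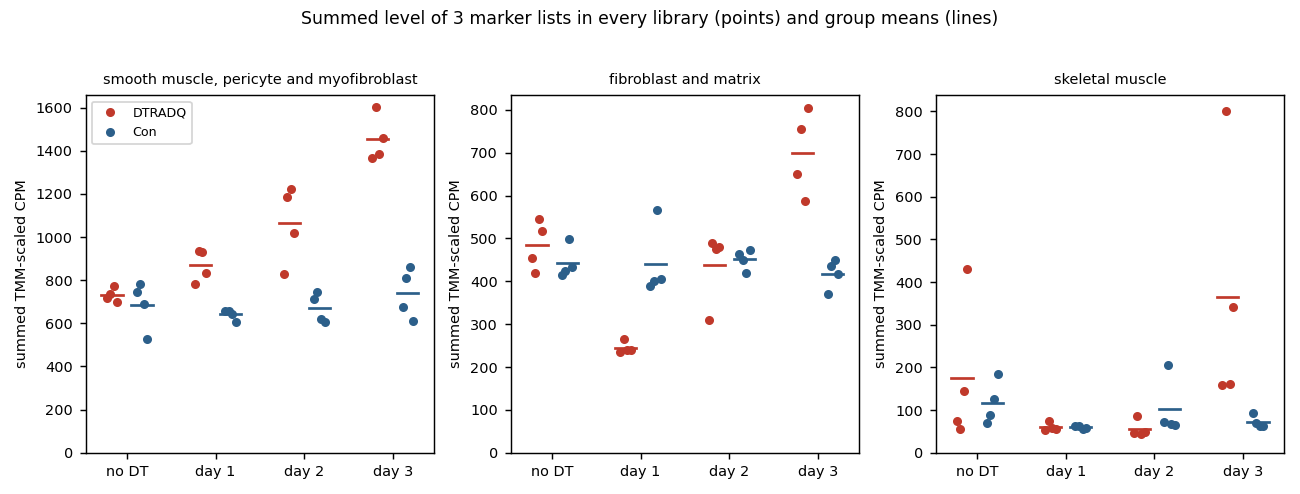
Points are the summed TMM-scaled CPM of 3 marker lists in each library, with DTRADQ left of Con on each day and lines at the group means. The skeletal muscle sum, over 20 genes with the 3 members included, reaches 799.7 CPM in 1 DTRADQ mouse of day 3 and is at most 87.0 CPM in DTRADQ at day 2.

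The remaining 11 members have mixed roles, and 2 passed at day 2. Mest, an imprinted gene of mesodermal tissue, had 1.40, 4.02, 3.46 and 4.21 CPM in DTRADQ at day 2, against 0.638, 0.841, 1.55 and 0.591 CPM in Con. DTRADQ replicate 1 was inside the Con range, and the change was 1.84 ± 0.40 (edgeR adjusted p = 0.00357). Bok, a BCL2 family protein, had 1.40, 3.06, 1.62 and 3.03 CPM in DTRADQ, against 1.22, 0.388, 0.710 and 0.787 CPM in Con, without overlap, and changed by 1.52 ± 0.36 (edgeR adjusted p = 0.00774). Dnm3os had 8.78, 7.64, 6.61 and 6.98 CPM in DTRADQ at day 3, against 2.77, 2.36, 3.48 and 2.66 CPM in Con, and changed by 0.09 ± 0.35 at day 2.

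Both Mest and Dnm3os span miRNA hairpins on their own strand, and the mature sequences are shown as context, since both loci also encode miRNAs. In the count files the genes of miR-199a-2 and miR-214 had 0 counts over all 32 libraries and that of miR-335 had 2. Reads of miR-199a-2 and miR-214 would be shared with Dnm3os, and the rule for shared reads was not given. These counts were not taken as levels of the miRNAs. Mest (chromosome 6, 30723547 to 30748455) holds the miR-335 hairpin outside its listed exons, and Dnm3os (chromosome 1, 162217623 to 162225550) holds miR-199a-2 and miR-214 within a listed exon. Sequences are from RefSeq, with the seed, bases 2 to 8, in capitals.
mmu-miR-335-5p: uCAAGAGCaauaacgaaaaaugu
mmu-miR-335-3p: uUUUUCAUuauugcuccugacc
mmu-miR-199a-5p: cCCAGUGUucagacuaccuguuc
mmu-miR-199a-3p: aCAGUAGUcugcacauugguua
mmu-miR-214-5p: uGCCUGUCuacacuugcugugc
mmu-miR-214-3p: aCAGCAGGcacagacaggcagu
The 6 seeds are all different.

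Without DT, 9 members were higher in DTRADQ and 0 lower, or 15.0%, where 12.7% of all genes tested were higher and 14.4% lower, so the share of members was near the background. At an unadjusted p under 0.05, 11 were higher and 1 lower, and DESeq2 called 10 higher and 1 lower. They were Dnm3os, Klrc2, Pls3, Cav1, Oas2, Serpinh1, Mmp2, Kdelr3 and Vcan. The groups were apart with DTRADQ above for 6 members and below for 1, where 5.64% of all genes were above and 5.42% below. Dnm3os had 3.06, 2.38, 3.15 and 3.19 CPM in DTRADQ, against 1.81, 0.591, 0 and 0.791 CPM in Con, a change of 1.69 (edgeR adjusted p = 0.00276). Klrc2 had 1.92, 2.12, 3.28 and 1.39 CPM in DTRADQ, against 1.11, 1.10, 0.726 and 0.395 CPM in Con, a change of 1.25 (edgeR adjusted p = 0.00230). The count was 3 without Con replicate 3, 5 without Con replicate 4 and 2 without both, where 7.27%, 11.5% and 5.29% of all genes were higher. In a fit of these 2 groups alone it was 0, where 0.0% of all genes were higher.

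Within DTRADQ, 14 members were higher and 1 lower at day 2 than without DT, where 4.27% of all genes were higher and 4.85% lower. Tubb6, Angpt2, Mest and Pls3 had the smallest p-values, with log2 changes of 1.65, 2.10, 2.40 and 1.26. The member that fell was Ttn, the sarcomere protein titin, with a change of -1.74 ± 0.55 (edgeR adjusted p = 0.0446). Its values were 1.71, 4.89, 1.84 and 0.979 CPM at day 2 and 2.85, 3.06, 3.69 and 22.2 CPM without DT, and replicate 4 without DT was far above the rest; without it Ttn did not pass. The count of 14 was 7 or 9 without replicate 2 or 3 of day 2, 21 without replicate 1 of day 2, and 8 or 9 without replicate 3 or 4 of the mice without DT. In that order, the shares of all genes higher were 2.72%, 2.2%, 4.73%, 2.3% and 1.65%. Within Con, 7 members were higher and 3 lower at day 2 than without DT, where 13.8% of all genes were higher and 14.4% lower, and the count of 7 was 0 without Con replicates 3 and 4 of the mice without DT. It was 11 or 4 without replicate 1 or 3 of the mice without DT, and 4 without replicate 2 of day 2. From the count of 0 onward, the shares of all genes higher were 8.94%, 20.5%, 9.39% and 11%.

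The difference between the genotype effect at day 2 and that without DT passed for 5 members, all higher, where 6.22% of all genes were higher and 4.88% lower. They were Tm4sf1, BC100530, Vsig4, Actg2 and Angpt2, with log2 differences of 1.42 ± 0.33, 2.01 ± 0.48, 2.49 ± 0.66, 1.82 ± 0.51 and 1.86 ± 0.54 (edgeR adjusted p = 0.00540, 0.00676, 0.0131, 0.0204 and 0.0251). The count of 5 is near the background share. It was 15 without DTRADQ replicate 1 of day 2, 8 without Con replicate 1 of day 2 or Con replicate 1 without DT, and 1 in a fit of the 4 groups alone. In that order, the shares of all genes higher were 5.99%, 5.19%, 11.5% and 1.38%.

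**Figure D5:**
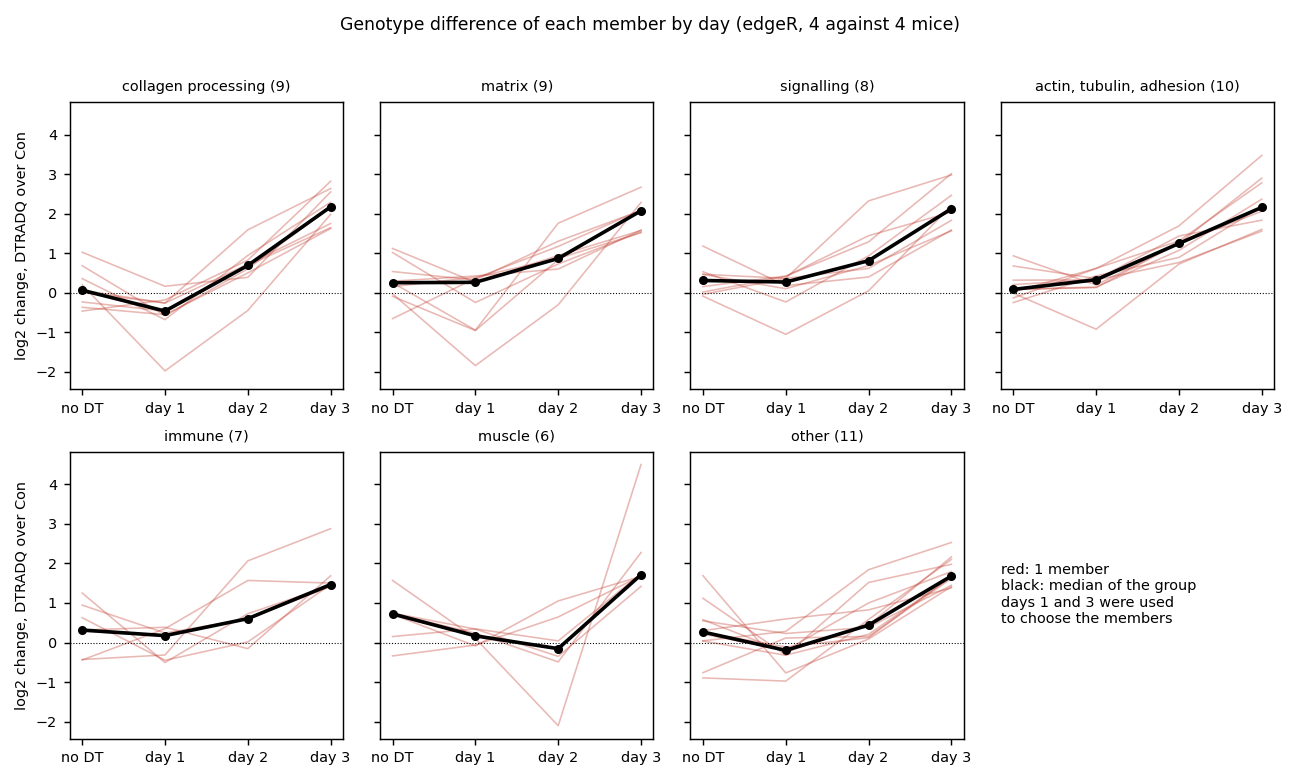
Lines give the edgeR log2 change, DTRADQ over Con, of each member without DT and at days 1, 2 and 3, in panels by role, with the group median in black. The collagen processing panel dips at day 1, and the muscle panel has a median of -0.15 at day 2.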

How the data were processed

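RNA of whole femur marrow was read from 32 libraries, 4 in each of 8 groups. Per the submitters' processing notes, bcl2fastq, STAR 2.0.4b, Subread and featureCounts 1.45 were used with GRCm38. Which annotation release, strand setting and rule for shared reads were used was not given in the sources used. The authors deposited a raw count, a CPM and an RPKM per gene, per the file headers. The deposited CPM were the counts over the library total. The deposited RPKM were the CPM per kilobase of gene length, and served to compare genes.

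Counts were tested with edgeR 4.0.16 in R 4.3.3 (quasi-likelihood, TMM, filterByExpr with a minimum count of 10, 14527 genes, 1 fit of 8 group means, two-sided, Benjamini-Hochberg, threshold 0.05). The script was tested on simulated counts. SE is the error of the log2 change, and levels are mean ± SD where an error is given. Precision at low levels is limited by totals of 8.97 to 22.93 M counts. Days 1 and 3 chose the members and were not tested for them, though their libraries were part of the fit. Lists are described by counts and medians. Alternatives were DESeq2 1.42.0, other scaling, no filter (28075 genes), fewer groups, a replicate block, a skeletal muscle covariate and leaving out libraries.

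Without DT, libraries of DTRADQ and Con with the same number deviated together weakly (correlations of 0.144 to 0.178). The same number was the best match for only 2 of the 4 DTRADQ libraries, so pairing was not established there. With the replicate block, 9 members were higher and 1 lower without DT, where 14.4% of all genes were higher. Library pairs differed by more than sampling noise (at least 9.689 chi-square units per gene). Named genes were the 10 highest members at day 3 by mean CPM, the 10 highest by r, up to 12 called at day 2 and up to 6 called without DT, with the genes nearest each threshold. Others are named by role. Members, lists and tests were chosen with earlier results of these data known, and the role groups after their values were seen.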

Additional observations from a re-analysis of the deposited data

Results flagged for a closer look

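Among 200 groups of 4 libraries (25 named members in 8 groups), 12 held a library apart by Dixon's criterion at the 95% level, which chance gives in about 1 in 20 groups. All values are TMM-scaled CPM. Serpinh1 was at 17.6 in DTRADQ replicate 1 of day 2, where the other 3 were at 43.9 to 47.9, and at 30.5 in Con replicate 2 of day 2, where the others were at 23.0 to 24.2. Pvalb was apart in 4 groups, at 1.09 in DTRADQ replicate 2 and 0.858 in Con replicate 1 of day 1, and at 1.92 in DTRADQ replicate 2 and 7.76 in Con replicate 2 of day 2. Loxl2 was apart at day 1, at 0.194 in DTRADQ replicate 4 and 0.368 in Con replicate 1. Prss23 was at 6.87 in DTRADQ replicate 3 of day 3, where the others were at 11.2 to 11.7. Without DT, Dnm3os was at 2.38 in DTRADQ replicate 2, Cav1 at 3.56 in DTRADQ replicate 3, and Mical2 at 1.58 in Con replicate 4.

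For 5 members the genotype effect at day 2 differed from that without DT, by edgeR's test of the difference. The log2 differences were 1.42 for Tm4sf1, 1.86 for Angpt2, 1.82 for Actg2, 2.49 for Vsig4 and 2.01 for BC100530. The 5 of 60 stand near the 6.22% of all genes that were higher. In a fit of the 4 groups alone, which are the libraries the rule did not use, 1 passed, where 1.38% of all genes were higher.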

How the results depend on the processing

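The count of 16 members higher at day 2 was 11 to 28 when a library of the groups compared was left out, the 28 without DTRADQ replicate 1. It was 20 with DESeq2, 19 in a fit of the groups compared and 11 in a fit of the no DT and day 2 libraries alone, and 0 members were lower in any of these. The share of all genes higher moved as well, from 4.4% in the main fit to 1.59% to 5.4% with a library left out. It was 6.74% with DESeq2, 10.6% with the groups compared and 1.62% with the no DT and day 2 libraries alone. Without Con replicates 3 and 4 of no DT, an alternative chosen after seeing the data, the count was 24 and the share 9.9%. All 16 alternatives, the added one included, kept Actg2, Angpt2, Vsig4, Mest, Ccdc80, Pls3, Tm4sf1, Bok, Dclk1 and BC100530. Acta2 was called in 11 of the 16, Prss23 in 15, P4ha2 in 14, Tubb6 in 15, Nexn in 9 and Fblim1 in 8. Among named members that did not pass, Tgfb2 was called in 5 of the 16, Klrc2 in 4, Serpinh1 in 2 and Mical2 in 1.

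Without DT, 9 became 3 to 10 when a library was left out (7.27% to 20.1% of all genes higher). The count was 0 with only the groups compared (0.0%) and 4 with the libraries the rule did not use (6.31%). It was 2 without Con replicates 3 and 4 (5.29%). In DTRADQ, day 2 against no DT, 14 became 7 to 21 when a library was left out (1.65% to 4.73%). It became 5 with the libraries the rule did not use (1.37%). In Con, 7 became 4 to 11 when a library was left out (9.39% to 20.5%). It became 0 with only the groups compared (1.36%) and 0 without Con replicates 3 and 4 (8.94%). For genotype by DT, 5 (6.22% of all genes higher) became 4 to 15 when a library was left out (4.31% to 11.5%). It became 10 with DESeq2 (8.16%) and 11 with the skeletal muscle list as a covariate (8.79%). With only the groups compared, which are the libraries the rule did not use, it became 1 (1.38%). The rule gave 36 members with r of at least 1.5 at day 3, 74 with TMM scaling (55 shared), 45 with a pseudocount of 1 (37 shared), 57 with r under 0.2 at day 1, and 55 to 75 when a library was left out. The cause of these changes was not tested.

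The replicate block gave 16, 14, 6 and 6 members higher at day 2, in DTRADQ, in Con and for genotype by DT. In that order, the shares of all genes higher were 5.86%, 5.12%, 15.3% and 6.72%. At day 2 the same-number correlations of DTRADQ and Con were -0.09, 0.05, -0.16 and 0.11, so the numbers do not pair those libraries. With a library left out, the day 2 change of Ifit3b ran from -0.45 to 0.12, positive without DTRADQ replicate 4, and that of Dnm3os from -0.035 to 0.39, negative without DTRADQ replicate 3 or Con replicate 3 or 4. Members near 1 CPM in Con rest on few counts, and overlapping genes limit Angpt2, Kdelr3, Mest, Tgfb3, Fkbp10, Loxl3, Atp2a1, 4930439A04Rik and Arhgap27os3.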
